A study of Mus musculus with 4 samples.

Results

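Calmodulin, the calmodulin-dependent kinases and calcineurin were followed in RNA from whole pancreatic islets through 9 genes, chosen by symbol: Calm2, Calm3, Camk2a, Camk2b, Camk2d, Camk2g, Camkk2, Ppp3ca and Ppp3cb. Each symbol matched 1 of the 52636 Ensembl genes in the deposited count table. Of these 9 genes, 8 had enough counts to be tested among 16924 genes, and Camk2a did not. The study compared islets of wild-type mice (control, 2 libraries) with islets of Tspan7 knockout mice (genotype Tspan7 y/-, 2 libraries). Tspan7, on the X chromosome, encodes a tetraspanin of the cell membrane, and y/- denotes males whose only X chromosome carries the knockout allele. The sample labels call the altered group a knockout, while the series description uses the abbreviation KD. Which exons or cells the deletion covers, the strain, the age and any treatment are not stated in the labels. Nor do they say whether each library is a different mouse or a pool of mice. P-values thus reflect only the scatter among these 4 libraries, which may be technical.

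Calmodulin is the small calcium-binding protein through which a rise in cytosolic calcium reaches kinases, phosphatases, channels and cyclases. In beta cells, glucose closes KATP channels and opens voltage-gated calcium channels, and calcium-loaded calmodulin then activates calcium/calmodulin-dependent kinase II (CaMKII), a multimer encoded by Camk2a, Camk2b, Camk2d and Camk2g that takes part in insulin secretion. Camkk2 encodes a kinase that activates other CaM kinases and AMPK, while Ppp3ca and Ppp3cb encode catalytic subunits of calcineurin, the calmodulin-activated phosphatase that dephosphorylates NFAT transcription factors and is the target of the immunosuppressants tacrolimus and ciclosporin. By its title the study concerns how calcium triggers beta-cell exocytosis, and these genes lie between the calcium signal and its effectors.

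Calm2 and Calm3 are shown first because they are separate genes for the same protein, so their counts have meaning only if reads can be told apart. In the GENCODE M21 transcripts (GRCm38), Calm2 (chromosome 17) and Calm3 (chromosome 7) each had a coding sequence of 447 bases that translated to the same 149 amino acids. Calm2 and Calm3 differed at 78 of the 447 coding bases (82.6% identity), and 74 of those differences fell on the third base of a codon. Coding bases 1 to 120 are printed 5′ to 3′, with capitals for the bases at which the sequences differ.
Calm2: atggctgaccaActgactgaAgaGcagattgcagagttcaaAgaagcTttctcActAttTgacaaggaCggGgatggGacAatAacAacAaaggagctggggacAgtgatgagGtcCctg
Calm3: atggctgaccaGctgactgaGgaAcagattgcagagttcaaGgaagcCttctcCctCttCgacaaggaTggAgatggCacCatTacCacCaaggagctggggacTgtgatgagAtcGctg

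In this stretch Calm2 and Calm3 differed at 18 bases, and over the whole coding sequence the longest run shared at the same position was 17 bases. No window of 50 bases was common to their annotated transcripts. Windows of 50 bases from Calm2 did recur in 3 predicted genes, Gm7308, Gm15720 and Gm14480 (9.72% of its windows), which had 0 to 5 counts a library. For Calm3 the share was 2.52%, all in Gm5881, which had 1 to 3 counts a library. Camk2d, Camk2g, Camkk2, Ppp3ca and Ppp3cb shared no such window with another annotated gene, and the shares were 0.293% for Camk2a and 0.159% for Camk2b. No exon of the 9 genes overlapped an annotated exon of another gene on either strand. The CaMKII proteins are alike as well, with 87.6% to 88.3% identity among Camk2b, Camk2d and Camk2g over their aligned residues, and the Ppp3ca and Ppp3cb proteins were 84.2% identical.

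Library totals ran from 7855665 to 9377220 counts. A detection floor of 3 counts equals 0.312 to 0.398 CPM, the unit used here for counts scaled to library size after TMM normalization. The targeted gene matched the labels, with 1924 and 1795 Tspan7 counts in the controls against 3 and 2 in the knockouts. All 8 beta-cell markers, 5 alpha-cell markers and 3 delta-cell markers listed for the check exceeded 3 counts in every library. The summed level of 8 acinar (digestive enzyme) markers differed most between libraries, at 2485 and 58.9 CPM in control and 1133 and 5211 CPM in knockout. Among the other lists, the sum of 8 macrophage markers lay lower in both knockout libraries (81.6 to 98 CPM against 59.1 to 69.2 CPM). So did the sum of 6 stellate and pericyte markers (200.3 to 230.3 CPM against 152 to 197 CPM). Within these lists, C1qa, C1qb, Csf1r, Col1a1 and Col1a2 overlapped between groups, and Acta2 lay higher in both knockout libraries. Rgs5 made up most of the stellate sum, at 168 and 184 CPM in control and 124.3 and 164.5 CPM in knockout libraries. The 7 neuronal and Schwann markers lay higher (28.4 to 30.3 CPM against 31.8 to 40.1 CPM), of which 3 exceeded 3 counts in every library, and Dbh had 1 count in all. The beta, alpha, delta, PP, acinar, duct and endothelial sums overlapped between groups. Over all tested genes, 30.3% had both knockout libraries on one side of both controls. A sum arranged in this way is thus no sign by itself of a change in cell types, which was not tested. In whole islets, fewer cells of a type and less RNA per cell cannot be told apart.

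Per length, Calm2 and Calm3 transcripts were the most abundant of the set, and Camk2b and Ppp3cb led their families. Levels are given as CPM per kb of annotated exon, as the mean ± SD over all 4 libraries, and describe the islets as a whole. Calm2 stood at 148 ± 15.5 and Calm3 at 58.1 ± 7.46 CPM per kb. Next came Camk2b at 21.3 ± 0.745 and Ppp3cb at 19.4 ± 1.13 CPM per kb. The ranges of these neighbours over the libraries overlapped narrowly, at 20.5 to 22.3 and 18.1 to 20.8, and Camk2b was the higher in each of the 4 libraries. Ppp3ca followed at 7.55 ± 0.819, then Camk2g at 3.55 ± 0.327 and Camk2d at 3.37 ± 0.548, whose ranges overlapped, and Camkk2 at 1.54 ± 0.230.

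The order of Camk2g and Camk2d depends on the length used. Camk2d has 22493 bases of annotated exon but 5524 bases in its longest complete coding transcript. Divided by the latter, its level was 13.7 ± 2.23 CPM per kb, above Camk2g at 6.14 ± 0.565 and beside Ppp3ca at 15.8 ± 1.72. Calm2 (180.2 ± 18.9) still led the 9 genes by this length, before Calm3 (61.5 ± 7.89), Camk2b (48.3 ± 1.69) and Ppp3cb (44.5 ± 2.60).

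**Figure D1:**
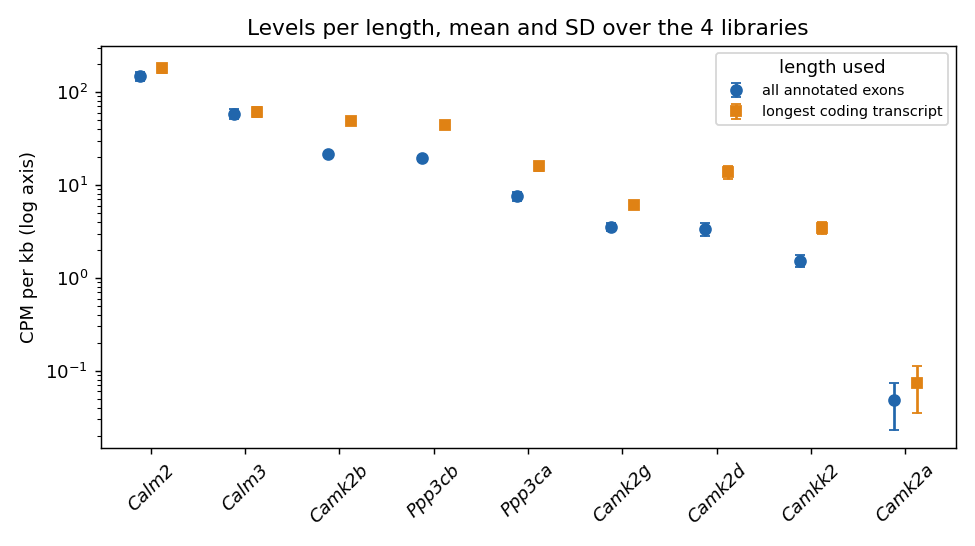
Level of each gene in CPM per kb on a log axis, as the mean and SD over the 4 libraries, with length taken as all annotated exons (circles) or the longest coding transcript (squares). Calm2 and Calm3 lie above all others shown by both lengths, Camk2d changes place with the length used, and Camk2a lies at 0.0488 CPM per kb of exon.

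Loss of Tspan7 came with no call in any of these genes. Of the 8 tested members, 0 passed an adjusted p under 0.05 in either direction by edgeR's quasi-likelihood test, where 0.00591% of all tested genes passed (1 gene, Tspan7). At an unadjusted p under 0.05 the count was also 0 of 8, against 3.51% of all tested genes, and DESeq2 and limma-voom called 0 as well. The log2 fold changes of knockout against control ran from -0.13 to 0.18, with 4 positive and 4 negative values and a median of 0.01. The median over all tested genes was 0.003. Every tested member had an adjusted p of 0.9997 in the edgeR test, so for each the 95% confidence interval (CI) of the fold change is given.

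Calm2 (ENSMUSG00000036438) measured 225 and 210.0 CPM in control libraries and 189.8 and 243 CPM in knockout libraries. The knockout libraries were the lowest and the highest of the 4, with both controls between them. Its log2 fold change was -0.01 ± 0.16 (SE), and the CI allowed knockout levels from 0.774 to 1.28 times the control level. Calm3 (ENSMUSG00000019370) measured 152 and 126 CPM in control and 124 and 160.0 CPM in knockout libraries. Again 1 knockout library was lowest and the other highest, and the fold change was 0.03 ± 0.17 on the log2 scale (CI 0.778 to 1.34 times control).

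Calm2 and Calm3 thus ordered the libraries in the same way, from knockout replicate 2 through control replicates 1 and 2 to knockout replicate 1. The summed level of the 8 beta-cell markers had that order too, at 17020, 15660, 13770 and 12840 CPM. Most of that sum came from Ins1, Ins2 and Iapp, each of which had the same order. Nkx6-1, Pdx1, Mafa, Slc2a2 and Ucn3 had other orders, and Pdx1 was highest in control replicate 2 and lowest in control replicate 1. Whether beta-cell RNA had a part in the order of Calm2 and Calm3 was not tested. Calm2 and Calm3 together summed to 357 ± 29.2 CPM in the controls and 359 ± 63.0 CPM in the knockouts (SD, n = 2 each). Calm2 supplied 72.1% ± 1.64 of the summed Calm2 and Calm3 level per kb in control and 71.6% ± 0.0568 in knockout islets (SD, n = 2 each). In an exact two-sided permutation test this gave p = 1, where 2 libraries against 2 cannot go below 0.333. The difference of -0.559 percentage points became -1.72 without control replicate 1 and 0.604 without control replicate 2.

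**Figure D2:**
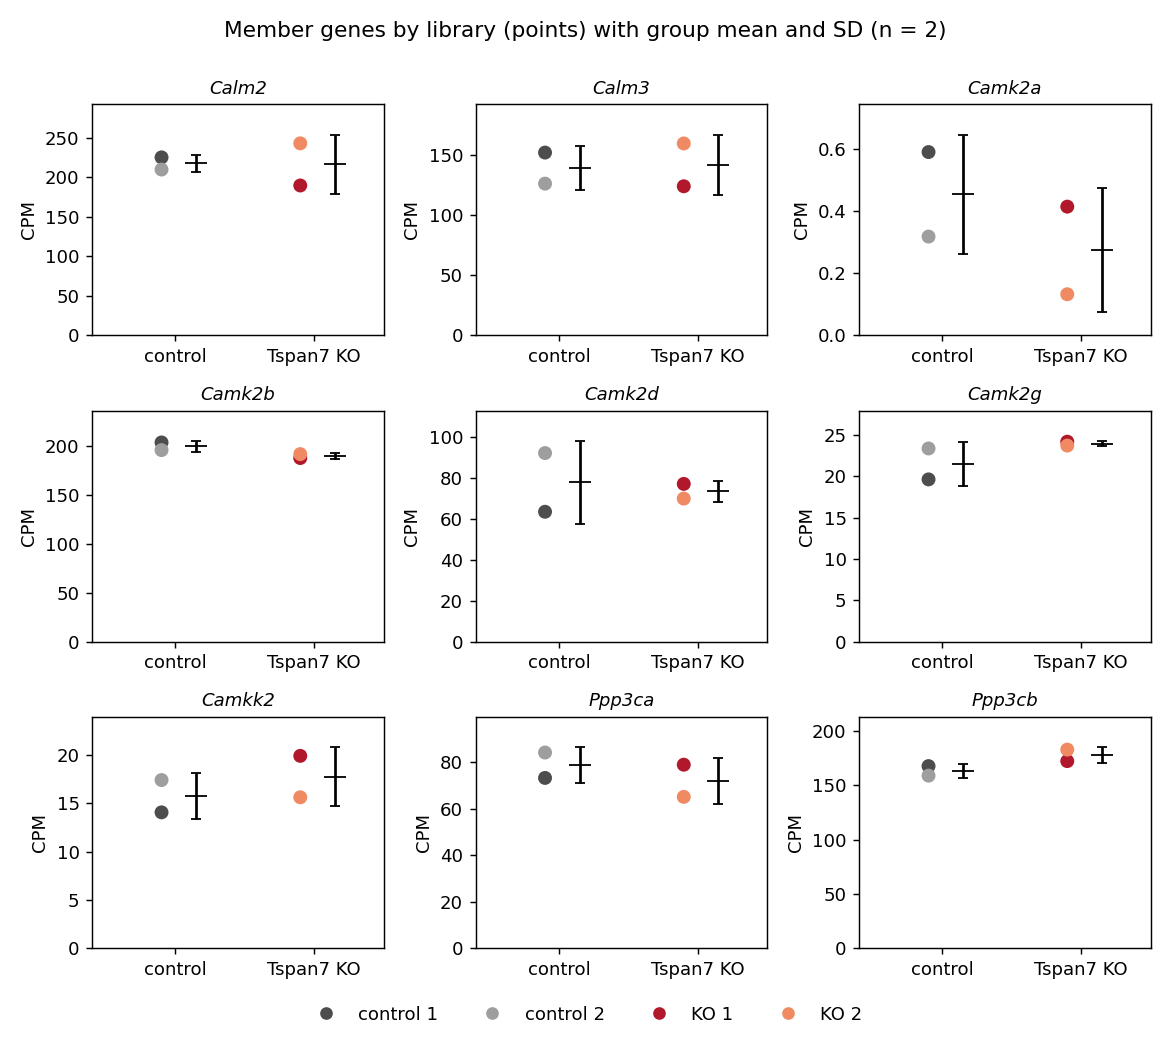
CPM of each of the 9 genes in each library (points, 2 per group) with the group mean and SD beside them, each panel on its own axis from 0. The groups overlap for Calm2, Calm3, Camk2a, Camk2d, Camkk2 and Ppp3ca, while Camk2b lies slightly lower and Camk2g and Ppp3cb slightly higher in both knockout libraries.

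Camk2b was the main CaMKII gene of the islets, and Camk2a, the isoform best known from forebrain neurons, was at the limit of detection. Camk2b (ENSMUSG00000057897), the beta isoform, which binds actin, measured 203 and 196 CPM in control and 187 and 191 CPM in knockout libraries. Both knockout libraries lay below both controls, by a log2 fold change of -0.07 ± 0.13 (CI 0.773 to 1.17 times control). Camk2d (ENSMUSG00000053819), the delta isoform best known from the heart, measured 63.5 and 92.2 CPM in control and 77.2 and 70.0 CPM in knockout libraries. The knockout values lay between the 2 controls, whose own difference of 0.54 on the log2 scale was the widest within a group among the tested members. Its fold change was -0.08 ± 0.19 on the log2 scale (CI 0.698 to 1.28 times control), and 0.21 without control replicate 2.

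Camk2g (ENSMUSG00000021820), the gamma isoform, measured 19.6 and 23.4 CPM in control and 24.2 and 23.7 CPM in knockout libraries. Both knockout libraries were above both controls by a small margin, and the log2 fold change was 0.15 ± 0.17 (CI 0.850 to 1.46 times control). Camk2a (ENSMUSG00000024617) gave 5 and 3 counts in the controls and 4 and 1 in the knockouts, at or near the floor of 3 counts a library, so no fold change is given. The defining markers of neurons and Schwann cells Sox10 and Dbh likewise gave 0 to 3 counts in each library.

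As shares of the summed CaMKII level per kb of exon, Camk2b took 78.9% and 73.3% in control and 73.9% and 75.4% in knockout libraries. The Camk2d share was 10% and 14.0% in control and 12.3% and 11.2% in knockout libraries, which lay between the controls. For Camk2g the shares were 10.9% and 12.5% in control and 13.6% and 13.3% in knockout libraries. This was the one share of the family whose groups did not overlap, a difference of 1.78 percentage points with p = 0.333 in the exact two-sided permutation test, the smallest p that the design allows. The difference was 0.966 percentage points without control replicate 1 and 2.60 without control replicate 2. Among counts with no length correction, Camk2g made up 7.51% of CaMKII counts in control replicate 2 (exact 95% interval 6.58% to 8.52%) and 8.32% in knockout replicate 2 (7.19% to 9.57%), and these intervals, which cover counting error only, overlapped. Camk2a made up 0.0465% to 0.206% of the CaMKII counts, with an upper exact bound of 0.480% in the library where it was highest. The 4 genes together summed to 299 ± 17.3 CPM in the controls and 287 ± 2.75 CPM in the knockouts (SD, n = 2 each).

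**Figure D3:**
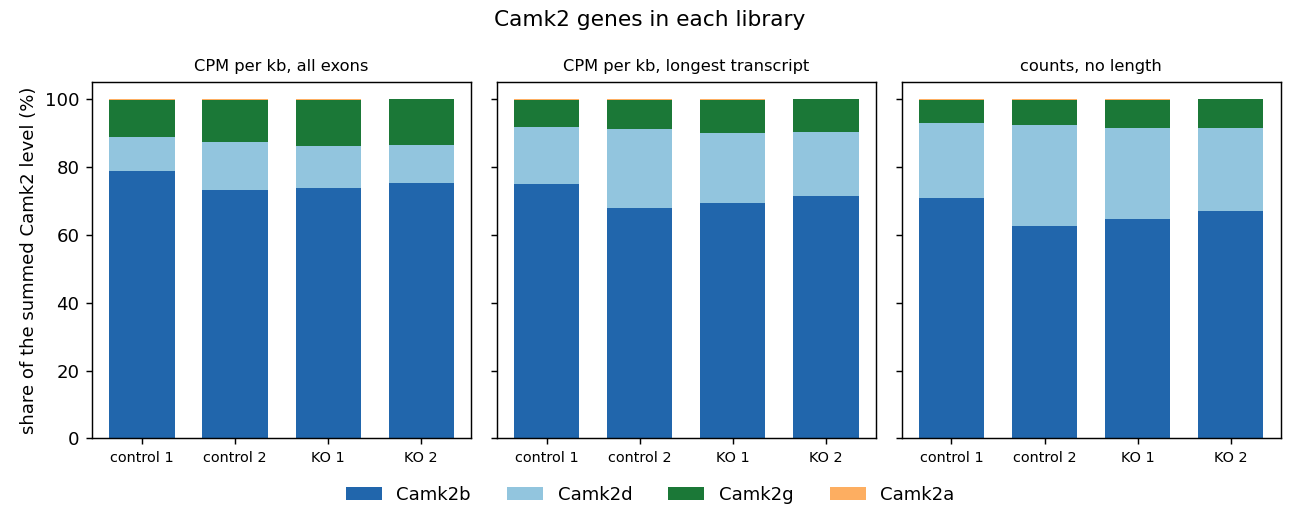
Share of each Camk2 gene in the summed Camk2 level of each library, in percent, by CPM per kb of exon (left), CPM per kb of the longest coding transcript (middle) and counts with no length correction (right). Camk2b holds 62.8% to 78.9% in every library by all 3 measures, Camk2d and Camk2g hold most of the rest, and Camk2a is too small to see.

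Camkk2 (ENSMUSG00000029471), the upstream kinase, was the least abundant of the tested genes by level per kb. It measured 14.1 and 17.4 CPM in control and 19.9 and 15.6 CPM in knockout libraries, with the groups interleaved. Its log2 fold change was 0.18 ± 0.21, and the CI was the widest on the upper side among the tested members, at 0.815 to 1.57 times control. Differences between replicates were larger, at 0.31 between controls and 0.35 between knockout libraries on the log2 scale.

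Ppp3cb, which encodes the beta catalytic subunit of calcineurin, exceeded Ppp3ca, which encodes the alpha subunit, in level per kb in every library. Ppp3cb (ENSMUSG00000021816) measured 168 and 159 CPM in control and 172 and 183 CPM in knockout libraries. Both knockout libraries lay above both controls, by a log2 fold change of 0.12 ± 0.13 (CI 0.882 to 1.34 times control). Ppp3ca (ENSMUSG00000028161) measured 73.2 and 84.2 CPM in control and 78.9 and 65.1 CPM in knockout libraries. These overlapped, with a log2 fold change of -0.13 ± 0.16 (CI 0.715 to 1.17 times control).

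The 2 calcineurin genes had their extremes in opposite libraries, and their sum was steadier than either. Ppp3ca was highest in control replicate 2 and lowest in knockout replicate 2, and Ppp3cb the reverse. Between the other libraries both genes went the same way, higher in knockout replicate 1 than in control replicate 1 (78.9 against 73.2 CPM for Ppp3ca, 172.5 against 167.9 CPM for Ppp3cb). Summed, they came to 241 and 243 CPM in control and 251 and 248 CPM in knockout libraries, 1.03 times control. Ppp3ca supplied 27.8% and 31.8% of the summed level per kb in control and 28.8% and 23.9% in knockout libraries. That difference of -3.49 percentage points was set against SDs of 2.85 and 3.45 within the groups (exact two-sided permutation p = 0.667). It ranged with 1 library left out, at -1.05 without knockout replicate 2, -5.93 without knockout replicate 1, -1.47 without control replicate 2 and -5.50 without control replicate 1. Ppp3cc, the remaining catalytic gene, named after its values were seen, measured 8.05 and 10.7 CPM in control and 11.0 and 12.7 CPM in knockout libraries, a log2 fold change of 0.33 ± 0.23 (edgeR adjusted p = 0.9997).

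Both knockout libraries lay on one side of both controls in 3 of the 8 tested members, Camk2b below and Camk2g and Ppp3cb above. Over all tested genes 30.3% were arranged in this way (15.3% with knockout above and 15% with knockout below), so 3 of 8 is near the background. In 6 of the 8 members the fitted difference between groups was smaller than the larger difference between replicates. The exceptions were Camk2b and Ppp3cb, the most even of the set. The share of all tested genes with this property was not computed, so the count only describes the members.

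**Figure D4:**
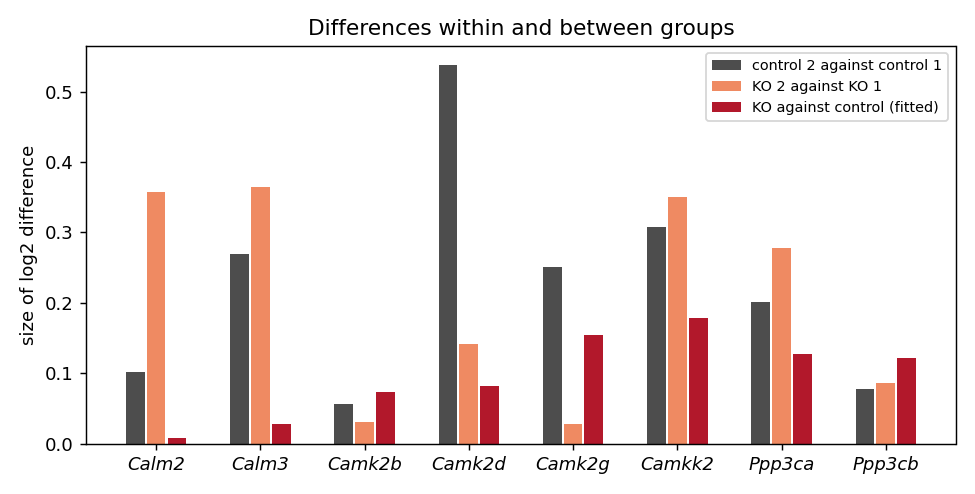
Size of the log2 difference between the control replicates (dark grey), between the knockout replicates (orange) and between groups as fitted (red), for each tested gene. Between-group differences stay at or below 0.18, while replicates differ by up to 0.54.

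Around these genes, 68 others of the pathway were listed, of which 56 were tested and 0 passed over all genes by edgeR, DESeq2 or limma-voom. At an unadjusted p under 0.05 in the edgeR test there was 1 higher and 1 lower, against 3.51% of all tested genes in either direction. Groups did not overlap in 13 of 56, against 30.3% of all tested genes, so neither count stood out from the background. Among the 56 pathway genes 32 log2 fold changes were positive and 24 negative, with a median of 0.04. Camkk1 and Syn1, named here after their values were seen, are the genes behind the unadjusted count. Camkk1, the paralog of Camkk2, measured 6.63 and 5.74 CPM in control and 10.3 and 8.62 CPM in knockout libraries (log2 fold change 0.62 ± 0.24). Syn1, which encodes the vesicle protein synapsin and CaMKII substrate, measured 73.7 and 83.3 CPM in control and 66.9 and 55.8 CPM in knockout libraries (-0.36 ± 0.15). Neither passed over all genes (edgeR adjusted p = 0.9997 for each).

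Genes that bind calmodulin, resemble it or carry its name gave 0 calls among 7 tested of 11, with a median log2 fold change of 0.07 (5 positive, 2 negative). Their most abundant genes were the microtubule minus-end binders Camsap2 at -0.16 ± 0.17 and Camsap1 at -0.05 ± 0.19, and the transcription activators Camta2 at 0.07 ± 0.14 and Camta1 at 0.19 ± 0.17. Other calmodulin-dependent kinases gave 0 calls among 10 tested of 14 (median 0.08). Here Dapk1, a death-associated kinase, stood at 0.06 ± 0.15, Phkg2, a phosphorylase kinase subunit, at 0.13 ± 0.17, Eef2k, the kinase of elongation factor 2, at 0.10 ± 0.21, and Camk1 at -0.13 ± 0.18. Camk4, a nuclear CaM kinase added after its values were seen, had the largest log2 fold change of the pathway genes (1.16 ± 0.51, adjusted p = 0.9997), from 15 and 26 counts in the controls and 71 and 20 in the knockouts. Knockout replicate 1 alone stood apart, and the value was 0.22 without it.

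Inhibitors and substrates of CaMKII gave 0 calls among 9 tested of 10, with a median of -0.01. The inhibitor gene Camk2n1 stood at -0.01 ± 0.14, the microtubule-associated protein gene Map2 at 0.05 ± 0.13, the deacetylase gene Hdac5 at -0.09 ± 0.14 and the transcription factor gene Creb1 at -0.15 ± 0.15 on the log2 scale. Per kb of exon, Camk2n1 measured 57.4 CPM on average over the libraries, above Camk2b. The ryanodine receptor gene Ryr2 gave 2 to 7 counts a library and was not tested.

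The AMPK arm below Camkk2 gave 0 calls among 7 tested of 8 (median -0.05). The catalytic gene Prkaa1 stood at -0.05 ± 0.13, the regulatory genes Prkag2 at -0.15 ± 0.14 and Prkab2 at 0.21 ± 0.53, and the upstream kinase gene Stk11 at 0.10 ± 0.13. Prkab2 was uneven within groups, at 70.5 and 28.1 CPM in control and 68.2 and 45.2 CPM in knockout libraries.

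Partners of calcineurin gave 0 calls among 11 tested of 12, with a median log2 fold change of -0.03. The regulatory subunit gene Ppp3r1 measured 213 and 198 CPM in control and 192 and 204 CPM in knockout libraries (-0.05 ± 0.13). The calcineurin regulator Rcan3 stood at -0.07 ± 0.14, Fkbp1a, which encodes the binding protein of tacrolimus, at -0.03 ± 0.14, and Ppia, which encodes that of ciclosporin, at -0.03 ± 0.13. Transcription factors reached by calcineurin or CaM kinases gave 0 calls among 12 tested of 13 (median 0.06). Mef2d stood at -0.01 ± 0.14, Foxo1 at -0.11 ± 0.14, Mef2a at 0.04 ± 0.13 and the calcineurin target Nfatc3 at 0.03 ± 0.13.

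**Figure D5:**
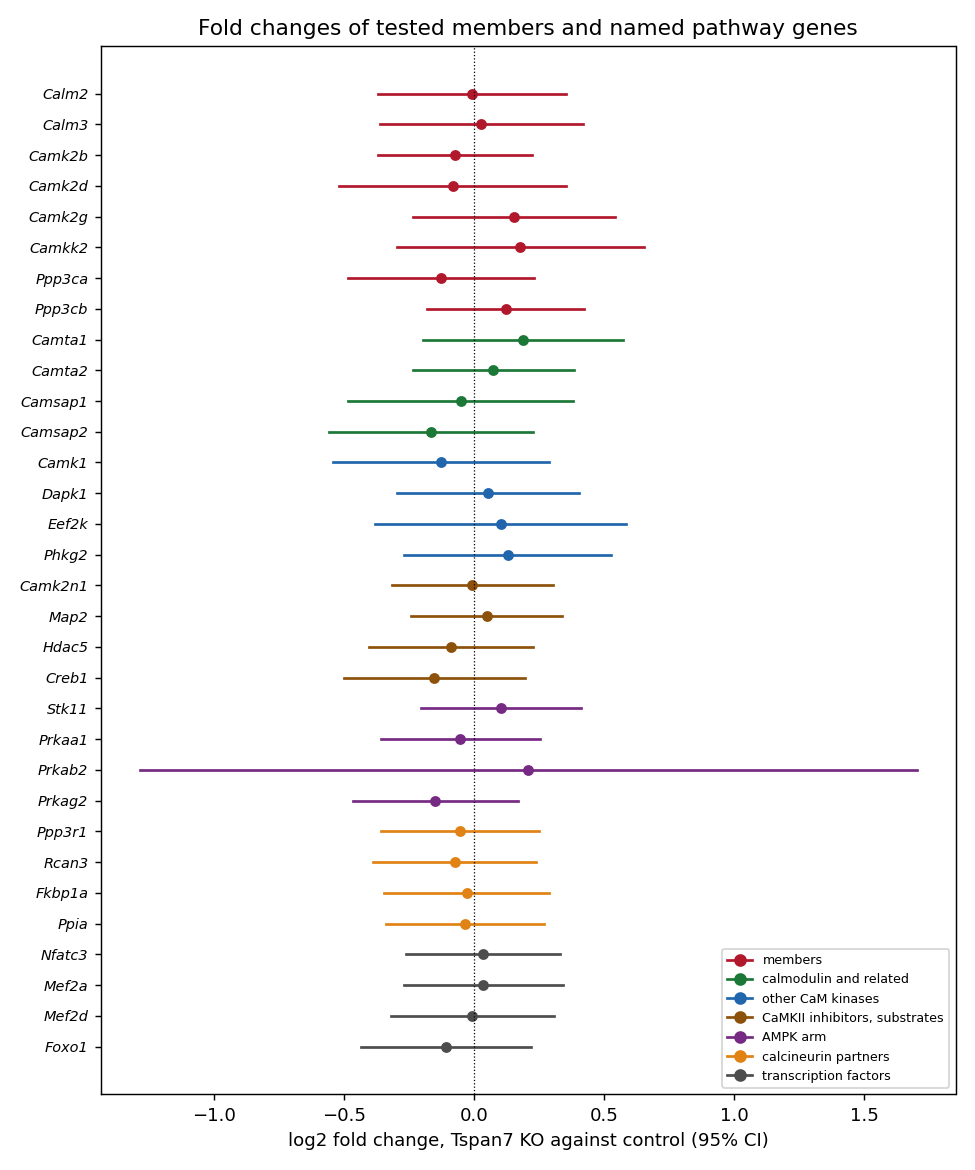
Log2 fold change of knockout against control with its 95% CI from the edgeR fit, for the 8 tested members and, by list, the 24 most abundant pathway genes (4 per list). Every interval includes 0, and that of Prkab2 is the widest.

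With 4 libraries, many genes resemble any one profile. By the root mean square difference of centred log2 CPM over the 4 libraries, among the 7886 genes whose mean log2 CPM reached 4, the closest to Calm2 was Sytl4 (0.0064), which encodes the granule protein granuphilin. The closest to Camk2b was the myosin gene Myo5a (0.0052) and to Ppp3cb the chromatin protein gene Hmgn2 (0.0039). Within 0.1 of a member lay 1254 genes for Calm2, 2794 for Camk2b and 2177 for Ppp3cb, against 276 for Camk2d and 197 for Camkk2.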

How the data were processed

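RNA from whole islets was sequenced in 2 control and 2 Tspan7 knockout libraries made with a strand-marking kit, per the labels' protocols. The deposited table holds raw counts per gene, made by the authors with HISAT2 and featureCounts on GRCm39, per the submitters' processing notes. The sources used here give no versions, annotation release, strand setting or treatment of multi-mapped reads.

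Symbols came from GENCODE M21 (GRCm38), which named 52403 of 52636 identifiers. Exon lengths and transcript sequences came from the same release, so no coordinates are given. Genes were filtered with filterByExpr (minimum count 10), scaled by TMM and tested by edgeR 4.0.16 with its robust quasi-likelihood F test (R 4.3.3), two-sided, without covariate. P-values were adjusted by Benjamini-Hochberg over all 16924 tested genes, with a threshold of 0.05. CPM values use TMM-scaled library sizes, and intervals of counts cover counting error only. Libraries of 1 group differed by more than sampling noise, with chi-square divided by its degrees of freedom at 12.9 for the controls and 13.3 for the knockouts. The fit was tested on simulated data.

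The 9 members and the gene lists were chosen with earlier results of these data known, and some listed items are not reported here. The 4 tested genes of highest mean CPM in each list are named, beside all members. Alternatives covered 3 other scalings, no filter, DESeq2 1.42.0, limma-voom (limma 3.58.1), the replicate number as a block, and each library left out. A crossed block and the transcript length were chosen after seeing the data.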

Additional observations from a re-analysis of the deposited data

How the results depend on the processing

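No member was called in any alternative, and the smallest adjusted p of a member ran from 0.741 (edgeR, without control replicate 1) to 1 (DESeq2 and the replicate block). The median log2 fold change of the members ran from -0.005 to 0.067 over the alternatives. With 1 library left out, the knockout minus control difference in share, in percentage points, ran from -4.22 to 1.32 for Camk2b, -2.27 to 1.76 for Camk2d, 0.966 to 2.60 for Camk2g, -0.150 to -0.0132 for Camk2a, -1.72 to 0.604 for Calm2 and -5.93 to -1.05 for Ppp3ca. The Camk2b, Camk2d and Calm2 differences thus changed sign, while with the other gene lengths no share difference did. Over all genes, the single call became 62 with no low-count filter (15 higher, 47 lower), 6 with DESeq2 (0 and 6), 6 with the replicate block (1 and 5) and 2 with the crossed replicate block (1 and 1), and ran from 1 to 48 with 1 library left out (0 to 33 higher, 1 to 15 lower), with 48 without control replicate 1 and 2 without control replicate 2. In these fits the lone library is assumed to vary like the other group. The cause was not tested. The labels' replicate numbers share no stated batch, and deviations of same-numbered libraries correlated at -0.300 across genes, so the block was not used as the main design. With no low-count filter the log2 fold changes near 0 of Calm2 (0.003), Camk2n1 (0.004) and Mef2d (0.005) changed sign.

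Leaving out 1 library changed the sign of several log2 fold changes, none of them called.
The ranges among members were -0.20 to 0.16 for Calm2, -0.17 to 0.20 for Calm3, -0.33 to 0.21 for Camk2d, -0.009 to 0.34 for Camkk2 and -0.27 to 0.003 for Ppp3ca. Among other pathway genes they were -0.13 to 0.32 for Eef2k, -0.10 to 0.086 for Camk2n1, -0.12 to 0.067 for Fkbp1a, -0.34 to 0.19 for Camsap1, -0.25 to 0.008 for Camk1, -0.088 to 0.21 for Dapk1 and -0.31 to 1.02 for Prkab2. They were also -0.029 to 0.10 for Mef2a, -0.075 to 0.063 for Mef2d, -0.22 to 0.008 for Foxo1, -0.002 to 0.10 for Map2, -0.10 to 0.033 for Ppia, -0.39 to 0.032 for Camsap2, -0.009 to 0.26 for Phkg2, -0.13 to 0.019 for Prkaa1 and -0.15 to 0.003 for Rcan3.

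At 2 libraries a group, the intervals of the members leave room for changes of up to 1.57-fold (Camkk2), and 3 counts set the floor for Camk2a. Fold changes use no gene length, and levels per kb use lengths of GRCm38 transcripts.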

Other observations

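Replicate differences were also read against exon length, since the members range from 1467 to 22493 bases. Among 3908 tested genes with under 2 kb of exon, the median log2 ratio of control replicate 2 to replicate 1 was -0.04 and that of knockout replicate 2 to replicate 1 was 0.04. Among 4952 genes of 2 to 4 kb these medians were 0.002 and 0.017, and among 5498 genes of 4 to 8 kb 0.004 and -0.01. Among 2528 genes with over 8 kb they were 0.01 and -0.06. Calm2, of under 2 kb, had ratios of -0.10 and 0.36, and Camk2d, Camkk2 and Ppp3ca, all of over 8 kb, had 0.54 and -0.14, 0.31 and -0.35, and 0.20 and -0.28. Camk2b and Ppp3cb, also of over 8 kb, had ratios of -0.06 and 0.03, and -0.08 and 0.09. Calm3, of 2 to 4 kb, had ratios of -0.27 and 0.36, near those of Calm2. Camk2g, of 4 to 8 kb, had 0.25 and -0.03.

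Other genes closest in profile to the members were the phosphodiesterase gene Pde5a for Calm3 (root mean square difference 0.0112 on the log2 scale over the 4 libraries), Ssbp4 for Camk2d (0.0175), Mettl16 for Camkk2 (0.0261) and the ubiquitin ligase gene Ube3b for Ppp3ca (0.0068). The third closest gene to Camkk2 was Cabp1, which encodes a neuronal calcium-binding protein related to calmodulin (0.034).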
